A study of Bos taurus with 15 samples.

Results

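The enzymes and transporters of glycolysis, the pentose phosphate branch and the entry of pyruvate into the mitochondrion were followed in bovine blastocysts cultured with or without extracellular vesicles of the oviduct (oEVs). The group holds 34 genes, taken from the count tables by their gene symbols. Of these, 32 were among the 10832 genes of the filtered count table. The other 2, ENO2 (an enolase isoform best known from neurons) and SLC16A3 (a lactate exporter), were found only among the 34773 genes of the unfiltered table.

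Glycolysis splits glucose to pyruvate in the cytosol and yields ATP and NADH. Pyruvate is then either reduced to lactate, which leaves the cell through monocarboxylate transporters, or oxidised to acetyl-CoA by the pyruvate dehydrogenase complex, whose kinases switch it off. The pentose phosphate branch takes glucose-6-phosphate out of glycolysis to make NADPH and ribose, and its non-oxidative enzymes return the carbon. Mammalian embryos rely on pyruvate and lactate during early cleavage and take up more glucose at compaction and blastocyst formation.

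In-vitro-produced bovine embryos were cultured for 7 days with no supplement (Co), with fresh oEVs (FeEV) or with oEVs that had been frozen and thawed (FoEV). The oEVs came from oviducts of postovulatory cows collected at a slaughterhouse, and the fresh and the frozen vesicles were portions of the same oviducts. Pools of 8 to 14 embryos were made, 6 for Co, 7 for FeEV and 8 for FoEV, and the 5 pools of each treatment with the best RNA became libraries, each from 1 ng of total RNA. No source used here says whether the pools came from separate culture runs, so the p-values measure the spread between these pools.

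The libraries held between 2136713 and 4058887 counts, and each of the 5 FoEV libraries (3392613 or more) was deeper than each of the 5 Co libraries (2977004 or fewer). Genes for rRNA took 15.5% to 28.2% of the counts of a library. The blastocyst label was checked with marker lists. The 8 trophectoderm markers summed to between 6261 and 12022 CPM in a library (CPM are counts scaled to a common library total), the 5 markers of the inner cell mass to between 300.1 and 448.8 CPM, and the 5 of the hypoblast to between 4909.7 and 9359 CPM. Against this, 7 cumulus and granulosa cell markers summed to 26.7 to 49.8 CPM, 6 oviduct epithelium markers to 7.67 to 30.0 CPM and 3 blood markers to 0 to 6.94 CPM, with 1 of the 3 blood markers at 0 in every library. The trophectoderm sum had a median of 7620 CPM in Co, 8982 CPM in FeEV and 9612 CPM in FoEV libraries. It was mostly KRT8 and KRT18, with Co means of 4266 and 2684 CPM (scaled as below). GATA3, the next highest of the 8, had a Co mean of 207 CPM. At an unadjusted p below 0.05, 4 of the 8 genes had a higher level in FoEV than in Co libraries (8.18% of all genes did). These were KRT8, KRT18, GATA3 and GATA2, while CDX2, TFAP2C, TEAD4 and ELF3 did not pass. The inner cell mass sum had medians of 416, 368 and 396 CPM in the same order, and the hypoblast sum of 6577, 7291 and 6155 CPM. Of the 4 tested markers of each of these lists, 2 and 3 had a lower level in FoEV than in Co libraries, 1 of each at an unadjusted p below 0.05 (6.88% of all genes). The hypoblast sum was mostly FN1, with a Co mean of 6803 CPM. GATA6, the next highest of the tested hypoblast markers, had a Co mean of 437 CPM. Since each library is a pool of whole embryos, fewer cells of a type and less RNA per cell cannot be told apart.

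All levels of single genes below are CPM scaled by the trimmed mean of M-values (TMM). They compare 1 gene between libraries and do not rank genes against each other, because the counts are not divided by transcript length. The 32 genes together took 0.741% to 0.784% of the filtered counts in Co, 0.659% to 0.852% in FeEV and 0.660% to 0.889% in FoEV libraries, so the ranges overlapped. Within a treatment, the coefficient of variation had a median over the 32 genes of 11.6% for Co, 13.5% for FeEV and 15.5% for FoEV libraries, beside 16.6%, 15.4% and 17.4% over all 10832 genes. The 10832 genes were not matched to the 32 for expression level.

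**Figure D1:**
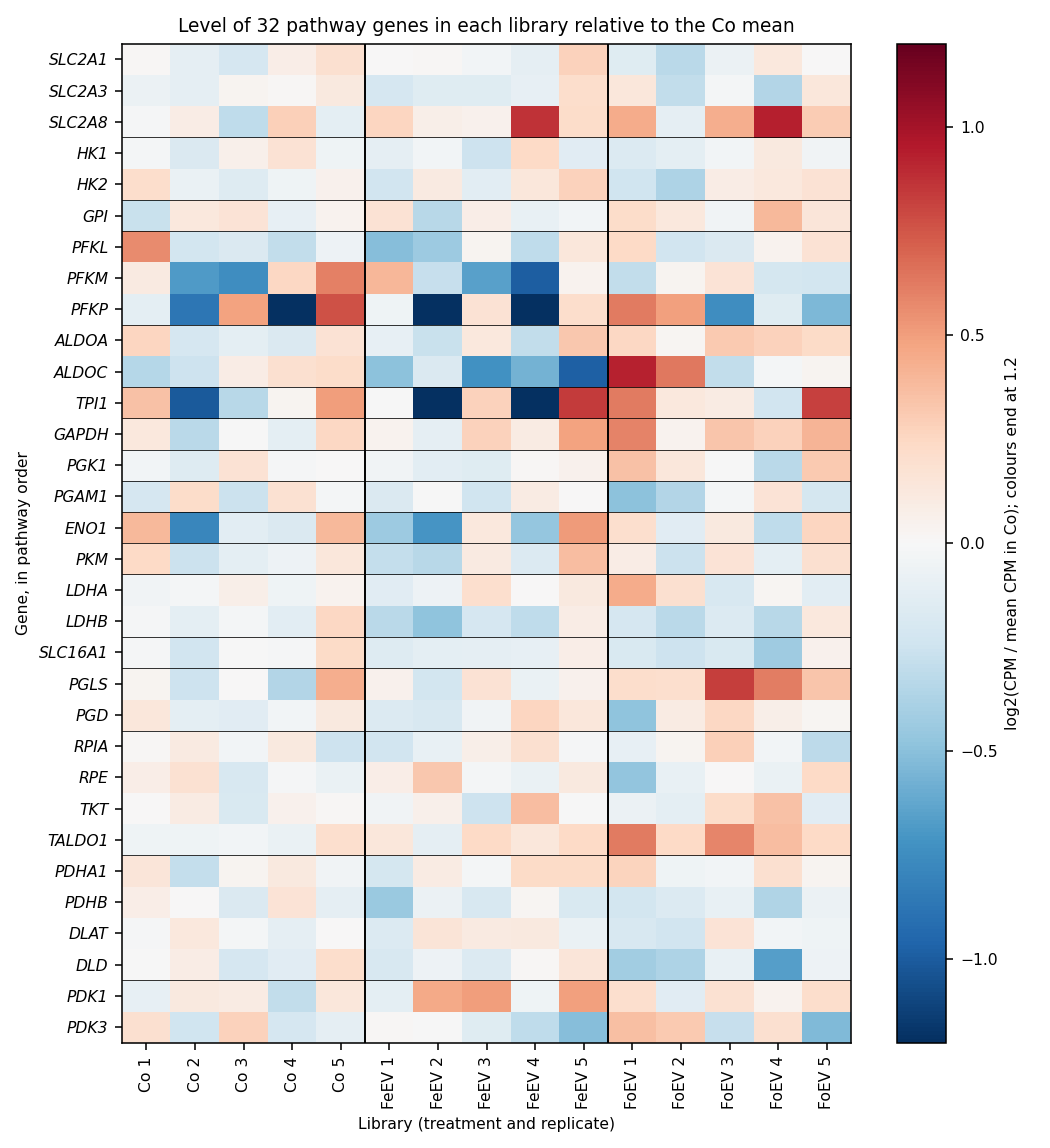
Level of each of the 32 genes (vertical axis, in pathway order) in each of the 15 libraries (horizontal axis), as the log2 ratio of its CPM to the mean CPM of the 5 Co libraries, with red above and blue below that mean. TALDO1 is above its Co mean in all 5 FoEV libraries, while TPI1, PFKP and ENO1 swing from library to library inside every treatment.

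No gene among the 32 reached an adjusted p of 0.05 in edgeR's quasi-likelihood test for FoEV vs. Co, where 0.00923% of all genes did. At an unadjusted p below 0.05, 4 of the 32 (12.5%) had a higher level in FoEV, namely SLC2A8, GAPDH, PGLS and TALDO1, beside 8.18% of all genes. In the other direction it was 1 of the 32 (3.12%), DLD, beside 6.88% of all genes. The robust likelihood ratio test of edgeR and the Wald test of DESeq2 each called 1 gene, TALDO1, at an adjusted p below 0.05. The first test called 2.87% of all genes. DESeq2 gave an adjusted p to 26 of the 32 and to 6002 genes in all, of which it called 2.4%. Fold changes were small: their log2 values ran from -0.30 to 0.46, and their median size without sign was 0.09, beside 0.16 over all genes. All genes were not matched to the 32 for expression level, on which this size can depend.

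For FeEV vs. Co, 0 of the 32 genes passed the adjusted p of 0.05 by any of the 3 tests, and 0% of all genes did in the quasi-likelihood test, 0.0554% in the likelihood ratio test and 0.00923% in DESeq2. At an unadjusted p below 0.05, PDK1 was the 1 gene with a higher level in FeEV, beside 1.83% of all genes. ALDOC and LDHB (6.25% of the 32) had lower levels in FeEV, beside 2.32% of all genes. For FoEV vs. FeEV, again 0 of the 32 passed by any of the 3 tests and 0% of all genes passed in the quasi-likelihood test, 0.286% in the likelihood ratio test and 0.0277% in DESeq2. At an unadjusted p below 0.05, the 4 genes ALDOA, ALDOC, PGLS and TALDO1 (12.5%) were higher in FoEV, beside 4.83% of all genes, and the 1 gene DLD (3.12%) was lower, beside 3.69%.

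Complete separation of the 5 libraries of each treatment was rarer still. In FoEV vs. Co, 1 of the 32 genes, TALDO1, was higher in every FoEV than in every Co library (1.26% of all genes), and 0 were lower in every one (1.35% of all genes). In FeEV vs. Co, 0 were separated upward (0.535% of all genes) and 0 downward (0.415% of all genes). In FoEV vs. FeEV, 1 gene, PGLS, was separated upward (0.757% of all genes) and 0 downward (0.748% of all genes).

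By direction alone, 19 of the 32 genes (59.4%, beside 52.3% of all genes) had a positive and 13 a negative log2 fold change in FoEV vs. Co. The median was 0.03 beside 0.01 over all genes. In FeEV vs. Co it was 13 positive (40.6%, beside 51% of all genes) and 19 negative, with a median of -0.03 beside 0.00. In FoEV vs. FeEV it was 22 positive (68.8%, beside 51.8% of all genes) and 10 negative, with a median of 0.06 beside 0.01. These tallies were not stable. In at least 1 of 25 alternative settings, 15 of the 32 genes changed sign in FoEV vs. Co, 16 in FeEV vs. Co and 12 in FoEV vs. FeEV. The glucose transporters and the enzymes from hexokinase to pyruvate kinase, 17 genes, were positive in 11 in FoEV vs. Co, in 4 in FeEV vs. Co and in 14 in FoEV vs. FeEV. The 6 pentose phosphate genes were positive in 4, in 5 and in 4, in the same order. The comparisons are not independent, because any 2 of them share the libraries of 1 treatment.

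**Figure D2:**
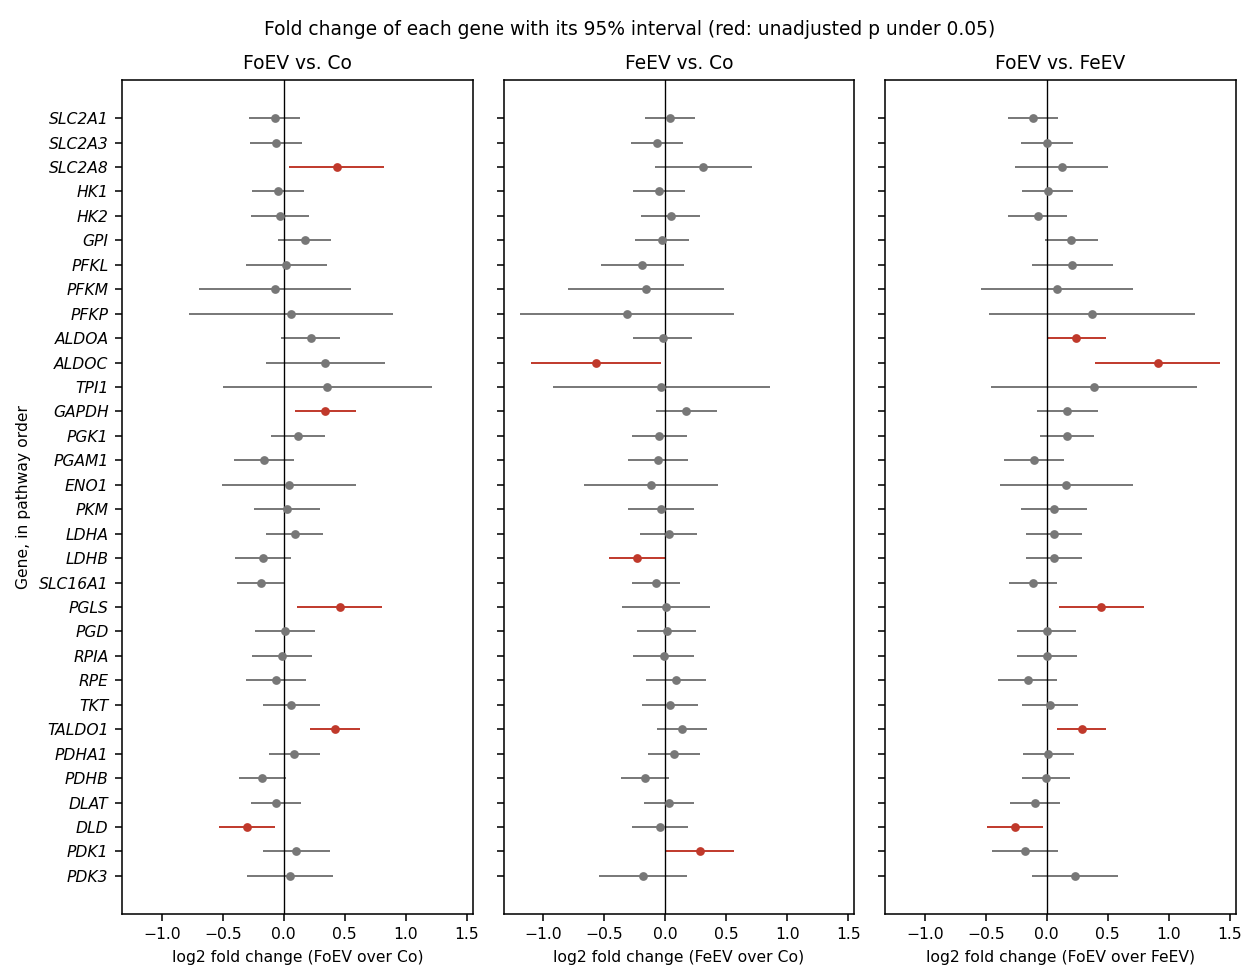
Log2 fold change of each of the 32 genes (points) with its 95% confidence interval (bars) in FoEV vs. Co, FeEV vs. Co and FoEV vs. FeEV, from edgeR's quasi-likelihood fit. Red marks an unadjusted p below 0.05, which 5, 3 and 5 genes had in the 3 panels, and the widest intervals belong to PFKP, PFKM, TPI1 and ENO1.

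Glucose enters the blastocyst through facilitative transporters of the SLC2A family. SLC2A1, the widespread basal transporter, stood at 179, 163, 153, 186 and 201 CPM in the Co libraries, at 177, 178, 172, 164 and 214 CPM in the FeEV libraries and at 159, 141, 168, 192 and 177 CPM in the FoEV libraries. The 3 ranges overlapped, with FeEV replicate 5 highest and FoEV replicate 2 lowest. SLC2A1 had a log2 fold change of -0.075 in FoEV vs. Co (95% interval -0.28 to 0.13) and 0.039 in FeEV vs. Co (95% interval -0.17 to 0.25).

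SLC2A3, a transporter with high affinity for glucose, was read at 1659, 1617, 1776, 1762 and 1884 CPM in Co, at 1514, 1569, 1568, 1629.5 and 2012 CPM in FeEV and at 1909, 1416, 1716, 1366 and 1909 CPM in FoEV libraries. FoEV replicates 2 and 4 were the lowest and FeEV replicate 5 was the highest, so the treatments overlapped throughout. Its log2 fold change was -0.064 in FoEV vs. Co (95% interval -0.28 to 0.15) and -0.069 in FeEV vs. Co (95% interval -0.28 to 0.14).

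SLC2A8, a transporter kept largely on intracellular membranes and known from the mouse blastocyst, stood at 18.6, 19.9, 15.2, 22.9 and 17.2 CPM in Co and at 25.5, 17.4, 25.3, 35.7 and 23.2 CPM in FoEV libraries, with 22.4, 19.7, 19.4, 34.2 and 21.8 CPM in FeEV libraries. In FoEV, 4 of the 5 libraries lay above the highest Co library, and replicate 2 lay among the Co values. SLC2A8 had a log2 fold change in FoEV vs. Co of 0.43 (SE 0.19, adjusted p = 0.276), and its unadjusted p was below 0.05 in 22 of 25 alternative settings. FeEV replicate 4, at 34.2 CPM, stood apart from the other 4 FeEV libraries.

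Hexokinase traps glucose in the cell as its phosphate. HK2, the insulin-responsive isoform that binds mitochondria, stood at 201, 164, 156, 167 and 180.2 CPM in Co, at 148, 188, 159, 191 and 210.1 CPM in FeEV and at 147, 134, 185, 189 and 195 CPM in FoEV libraries. Values of all 3 treatments interleaved. HK2 had a log2 fold change of -0.030 in FoEV vs. Co (95% interval -0.27 to 0.21) and 0.045 in FeEV vs. Co (95% interval -0.20 to 0.29). HK1, the ubiquitous isoform, had means (SD, n = 5) of 72.8 ± 6.50 CPM in Co, 70.6 ± 9.38 CPM in FeEV and 70.7 ± 5.22 CPM in FoEV. GPI, which turns glucose-6-phosphate into fructose-6-phosphate, had means of 174 ± 20.7 CPM in Co, 170.0 ± 21.8 CPM in FeEV and 196 ± 21.7 CPM in FoEV. Neither had an unadjusted p below 0.05 in any of the 3 comparisons.

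Phosphofructokinase commits the sugar to glycolysis and is the main control point of the pathway. PFKL, the liver-type subunit, had means of 47.1 ± 12.8 CPM in Co, 41.2 ± 8.25 CPM in FeEV and 47.9 ± 6.84 CPM in FoEV, and 1 Co library, replicate 1, was at 69.6 CPM, apart from the other 4. PFKM, the muscle-type subunit, had means of 5.41 ± 2.12 CPM in Co, 4.67 ± 1.75 CPM in FeEV and 5.06 ± 0.709 CPM in FoEV. PFKP, the platelet-type subunit, stood at 5.10, 3.04, 7.74, 2.41 and 9.44 CPM in Co, at 5.36, 1.49, 6.26, 1.82 and 6.42 CPM in FeEV and at 8.57, 7.82, 3.31, 5.01 and 3.82 CPM in FoEV libraries. These values rested on 4 to 37 counts per library and spread several fold inside each treatment. Its log2 fold change had a 95% interval of -0.78 to 0.89 in FoEV vs. Co around 0.059, and of -1.19 to 0.57 in FeEV vs. Co around -0.31, and at this depth a change of either sign inside these bounds could not be told from none.

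Aldolase cleaves the 6-carbon sugar to a pair of trioses. ALDOA, the isoform of most tissues, was at 516, 374, 396, 381 and 485 CPM in Co, at 402, 357, 471, 352 and 539 CPM in FeEV and at 512, 438, 533, 523 and 504 CPM in FoEV libraries. The FoEV libraries were the tightest of the 3 treatments, and the highest and the lowest single values both belonged to FeEV libraries. ALDOA had a log2 fold change in FoEV vs. FeEV of 0.24 (SE 0.12, adjusted p = 0.578), and the unadjusted p stayed below 0.05 in 11 of 25 alternative settings.

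ALDOC, the isoform named for its high level in brain, had the widest log2 fold change of the 32 genes between the 2 oEV treatments. It was read at 6.93, 7.42, 9.35, 10.034 and 10.3 CPM in Co, at 6.26, 7.80, 5.32, 5.92 and 4.47 CPM in FeEV and at 16.7, 13.6, 7.16, 8.68 and 8.996 CPM in FoEV libraries. FoEV replicates 1 and 2 lay above every other library, FoEV replicate 3 lay inside the FeEV range, and 4 of the 5 FeEV libraries lay below every Co library. ALDOC had a log2 fold change of 0.91 in FoEV vs. FeEV (SE 0.25, adjusted p = 0.447), with an unadjusted p below 0.05 in all 25 alternative settings. In FeEV vs. Co it was -0.57 (SE 0.26, adjusted p = 1.00), and here the unadjusted p was below 0.05 in 18 of the 25. The gene had 13 to 72 counts per library.

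GAPDH oxidises glyceraldehyde-3-phosphate and is widely used as a reference gene in expression assays. It stood at 670.2, 492, 611, 568 and 731 CPM in Co, at 634, 571, 742, 656 and 856 CPM in FeEV and at 929, 631, 774, 743 and 816 CPM in FoEV libraries. FoEV replicate 1 was the highest of the 15 and Co replicate 2 the lowest, and 4 of the 5 FoEV libraries lay above the highest Co library. GAPDH had a log2 fold change of 0.34 in FoEV vs. Co (SE 0.12, adjusted p = 0.192), with an unadjusted p below 0.05 in 24 of 25 alternative settings. In FeEV vs. Co it was 0.17 (SE 0.12, adjusted p = 1.00).

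The table also held rows for copies of GAPDH, among which its reads could be split. LOC616200, a GAPDH-like gene, had means of 40.4 ± 9.79 CPM in Co, 46.2 ± 12.8 CPM in FeEV and 58.7 ± 10.8 CPM in FoEV, and its log2 fold change in FoEV vs. Co was 0.54 (SE 0.18, adjusted p = 0.190). The likelihood ratio test and the quasi-likelihood test without a filter on low counts brought its adjusted p to 0.0386 and 0.0185. LOC617654, a GAPDH pseudogene, had means of 6.75 ± 2.14 CPM in Co, 9.12 ± 2.38 CPM in FeEV and 9.30 ± 1.78 CPM in FoEV. Whether reads of GAPDH are split between its row and these 2 rows was not tested, so its level may be uncertain by such reads.

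**Figure D3:**
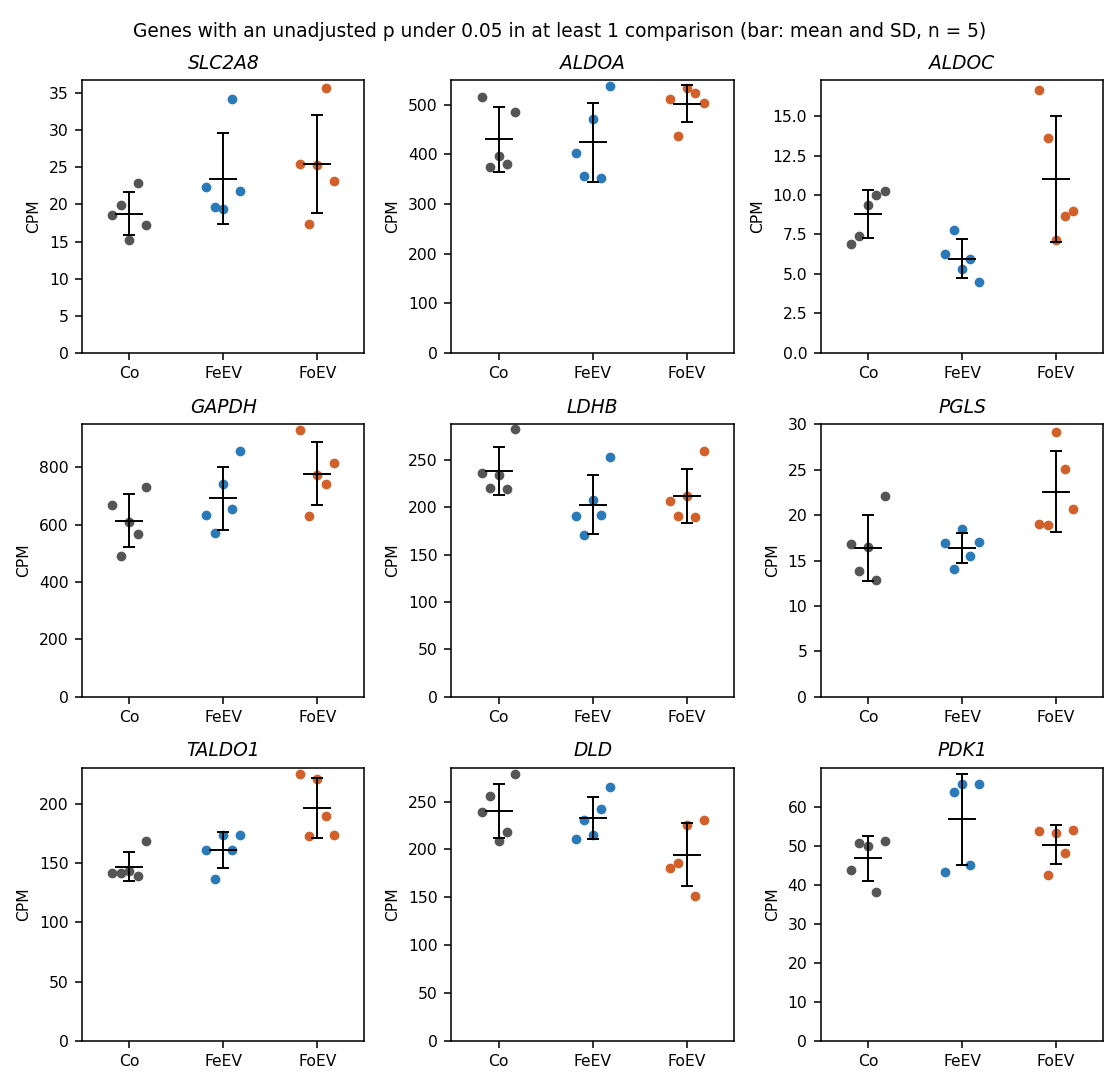
CPM (vertical axis, from 0) of the 9 genes with an unadjusted p below 0.05 in at least 1 comparison, in the 5 Co, 5 FeEV and 5 FoEV libraries (points, left to right by replicate), with the mean and SD as bars. TALDO1 is the only one of the 9 in which all FoEV libraries (173 to 226 CPM) lie above all Co libraries (139 to 169 CPM).

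The remaining steps to pyruvate showed no difference at an unadjusted p below 0.05. TPI1, which interconverts the trioses, had means of 20.3 ± 7.48 CPM in Co, 19.2 ± 12.4 CPM in FeEV and 25.7 ± 7.65 CPM in FoEV. PGK1, the first ATP-making enzyme of the pathway, had means of 129.7 ± 10.8 CPM in Co, 125 ± 7.29 CPM in FeEV and 140.5 ± 25.2 CPM in FoEV. PGAM1, the mutase that follows it, had means of 235 ± 35.0 CPM in Co, 225 ± 21.4 CPM in FeEV and 209.6 ± 38.1 CPM in FoEV. ENO1, the main enolase, had means of 380.1 ± 117 CPM in Co, 349 ± 127 CPM in FeEV and 391 ± 62.3 CPM in FoEV.

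PKM makes pyruvate and ATP in the last step. It was read at 963, 679.8, 752, 779 and 897 CPM in Co, at 668, 648, 876, 728 and 1051 CPM in FeEV and at 867, 682, 913, 751 and 929 CPM in FoEV libraries. The treatments overlapped over almost their whole ranges. PKM had a log2 fold change of 0.025 in FoEV vs. Co (95% interval -0.24 to 0.29) and -0.035 in FeEV vs. Co (95% interval -0.30 to 0.24).

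Of ENO2, the second enolase, the 5 libraries of a treatment held 14 counts in all in Co, 13 in FeEV and 21 in FoEV, with 0 to 7 in a library. With so few counts no difference was detectable.

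Some enzymes of the pathway moved together from pool to pool inside each treatment and others did not. ALDOA, TPI1, GAPDH, ENO1 and PKM, taken as deviations from their treatment means over the 15 libraries, had correlations of 0.777 to 0.926 in their 10 pairs, with a median of 0.868 and ENO1 with PKM closest. The other 486 pairs of the 32 genes had a median of 0.0797, from -0.759 to 0.832. The 5 were singled out after these correlations were seen, the values share library and scaling, and no test was made. Of the enzymes between them, PGAM1 had negative correlations with all 5 (-0.431 with TPI1 to -0.177 with PKM) and PGK1 had -0.012 with ALDOA to 0.404 with ENO1, whereas LDHB had 0.682 with ALDOA to 0.817 with PKM. All 5 lay above their treatment mean in Co replicates 1 and 5, in FeEV replicates 3 and 5 and in FoEV replicates 1 and 5, and all 5 lay below it in Co replicates 2 and 3, FeEV replicates 2 and 4 and FoEV replicate 2. TPI1 swung the most, from 0.329 to 1.90 of its mean in FeEV libraries, and GAPDH kept between 0.826 and 1.24 there. The rRNA share of the 6 libraries in which all 5 were high was 23.7% and 28.0% in Co, 18.1% and 22.8% in FeEV and 15.9% and 22.5% in FoEV. In the 5 libraries in which all 5 were low it was 15.5% and 18.4% in Co, 26.0% and 20.2% in FeEV and 19.0% in FoEV. The share was thus higher in the high libraries in Co, and the values of the other treatments did not separate that way, and its part in the swings was not tested.

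**Figure D4:**
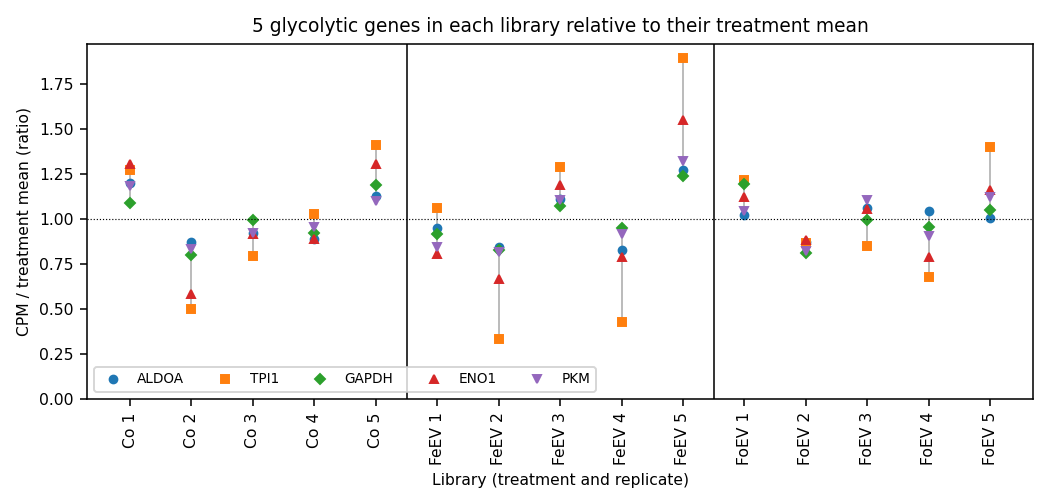
CPM of ALDOA, TPI1, GAPDH, ENO1 and PKM in each of the 15 libraries (horizontal axis), divided by the mean of the gene in that treatment (vertical axis, ratio; dotted line at 1). The 5 points of a library tend to sit on the same side of the line, and the largest swing is that of TPI1, from 0.329 in FeEV replicate 2 to 1.90 in FeEV replicate 5.

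Lactate dehydrogenase exists as tetramers of 2 subunits, LDHA, which favours lactate formation, and LDHB, which favours its oxidation. LDHA stood at 74.7, 75.6, 80.9, 74.3 and 79.2 CPM in Co, at 70.0, 73.9, 88.2, 77.0 and 83.2 CPM in FeEV and at 105, 87.8, 67.5, 78.5 and 70.3 CPM in FoEV libraries. The Co libraries lay close together, and the FoEV libraries reached both above and below them. LDHA had a log2 fold change of 0.090 in FoEV vs. Co (95% interval -0.14 to 0.32) and 0.029 in FeEV vs. Co (95% interval -0.20 to 0.26).

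LDHB was read at 236, 220.0, 234, 219 and 282 CPM in Co, at 190.1, 170.1, 207, 192 and 253 CPM in FeEV and at 207, 190.2, 212, 189 and 259.5 CPM in FoEV libraries. In each oEV treatment 4 of the 5 libraries lay below the lowest Co library, and replicate 5 was the high one in all 3 treatments. LDHB had a log2 fold change of -0.23 in FeEV vs. Co (SE 0.11, adjusted p = 1.00) and -0.17 in FoEV vs. Co (SE 0.11, adjusted p = 0.470). The first had an unadjusted p below 0.05 in 17 of 25 alternative settings, and without Co replicate 5, the highest Co library, it was 0.161.

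SLC16A1, a carrier of lactate and pyruvate across the plasma membrane, had means of 569 ± 63.8 CPM in Co, 540.3 ± 35.4 CPM in FeEV and 499 ± 60.3 CPM in FoEV and no unadjusted p below 0.05. LOC509911, a second row named monocarboxylate transporter 1, had means of 43.5 ± 7.37 CPM in Co, 35.1 ± 3.69 CPM in FeEV and 31.8 ± 9.75 CPM in FoEV. Its log2 fold change in FoEV vs. Co was -0.44 (SE 0.17, adjusted p = 0.223, unadjusted p = 0.0156 in the quasi-likelihood test). Whether reads are split between the 2 rows was not tested. SLC16A3 held 2 counts over the 5 Co libraries, 2 over the FeEV and 3 over the FoEV libraries. No library held more than 2 counts of it, under the 3 counts that a reading of 0 allows in a library, so no difference was detectable at this depth.

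Among the 32 genes, TALDO1 was fully separated between FoEV and Co libraries and PGLS between FoEV and FeEV libraries. Both belong to the pentose phosphate branch. Such upward separation was found in 1.26% and 0.757% of all genes, in the same order. SORD and ADPGK, described below and outside both the 32 and this branch, were also fully separated between FoEV and Co. TALDO1, transaldolase of the non-oxidative arm, moves 3-carbon units between sugars and returns pentose carbon to glycolysis. It stood at 141, 142, 144, 139 and 169 CPM in Co, at 161, 137, 174, 161 and 174 CPM in FeEV and at 226, 173, 221, 190.0 and 174 CPM in FoEV libraries. Every FoEV library lay above every Co library, while the FoEV and FeEV ranges met at their ends, and Co replicate 5 stood apart from the other 4 Co libraries. TALDO1 had a log2 fold change in FoEV vs. Co of 0.42 (SE 0.10, adjusted p = 0.0774). Over 25 alternative settings its adjusted p ran from 0.00844 to 0.266 and was below 0.05 in 5, which included the robust likelihood ratio test (0.00877), the Wald test of DESeq2 (0.00844) and the fit without FoEV replicate 2 (0.0416). With all libraries thinned to 2117202 counts the log2 fold change was 0.46 and the adjusted p 0.0665.

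TALDO1 in FeEV libraries lay between the other 2 treatments, with a log2 fold change of 0.14 in FeEV vs. Co (SE 0.10, adjusted p = 1.00) and of 0.29 in FoEV vs. FeEV (SE 0.10, adjusted p = 0.496). The treatments whose TALDO1 and GAPDH means were higher also had the higher trophectoderm marker sums, 6261 to 8133 CPM in Co, 6618 to 10118 CPM in FeEV and 7980 to 12022 CPM in FoEV libraries. Those sums were scaled to the library total without TMM, unlike the TALDO1 and GAPDH means, and were mostly KRT8 and KRT18. The part of cell type in the TALDO1 and GAPDH differences was not tested.

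PGLS hydrolyses the 6-phosphogluconolactone of the oxidative arm. It was read at 16.8, 13.8, 16.4, 12.8 and 22.2 CPM in Co, at 17.0, 14.1, 18.5, 15.5 and 17.0 CPM in FeEV and at 19.0, 18.9, 29.2, 25.0 and 20.7 CPM in FoEV libraries. Every FoEV library lay above every FeEV library, by a narrow gap, and Co replicate 5 lay inside the FoEV range. PGLS had a log2 fold change of 0.46 in FoEV vs. Co (SE 0.17, adjusted p = 0.209) and 0.45 in FoEV vs. FeEV (SE 0.17, adjusted p = 0.50). Without FoEV replicate 3, its highest library, the unadjusted p in FoEV vs. Co was 0.0575. The gene had 32 to 106 counts per library.

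The other 4 enzymes of the branch had no unadjusted p below 0.05. PGD, which makes NADPH in the third oxidative step, had means of 212 ± 18.8 CPM in Co, 214 ± 29.5 CPM in FeEV and 214 ± 37.6 CPM in FoEV. RPIA, the ribose-5-phosphate isomerase, had means of 48.7 ± 4.84 CPM in Co, 48.5 ± 5.38 CPM in FeEV and 48.3 ± 7.39 CPM in FoEV. RPE, the ribulose-phosphate epimerase, had means of 77.9 ± 7.87 CPM in Co, 83.0 ± 9.27 CPM in FeEV and 74.6 ± 12.8 CPM in FoEV. TKT, transketolase, which works beside TALDO1, had means of 374 ± 27.3 CPM in Co, 385 ± 62.0 CPM in FeEV and 391.5 ± 62.0 CPM in FoEV.

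The pyruvate dehydrogenase complex turns pyruvate into acetyl-CoA. DLD, its dihydrolipoamide dehydrogenase, also serves other mitochondrial complexes and the glycine cleavage system. It stood at 239, 256, 209, 218 and 279 CPM in Co, at 211, 231, 215, 243 and 266 CPM in FeEV and at 180.4, 185, 225, 152 and 230.4 CPM in FoEV libraries. FoEV replicates 1, 2 and 4 lay below every Co and FeEV library, and FoEV replicates 3 and 5 lay among them. DLD had a log2 fold change of -0.30 in FoEV vs. Co (SE 0.11, adjusted p = 0.209), with an unadjusted p below 0.05 in all 25 alternative settings. In FoEV vs. FeEV it was -0.26 (SE 0.11, adjusted p = 0.548). The other subunits of the complex had no unadjusted p below 0.05. PDHA1, the alpha subunit of the decarboxylase, had means of 289.9 ± 33.2 CPM in Co, 305 ± 38.2 CPM in FeEV and 308 ± 30.4 CPM in FoEV, PDHB, its beta subunit, of 235 ± 22.3 CPM in Co, 209.5 ± 24.8 CPM in FeEV and 208 ± 16.5 CPM in FoEV, and DLAT, the acetyltransferase core, of 71.3 ± 4.08 CPM in Co, 72.9 ± 6.78 CPM in FeEV and 68.2 ± 7.56 CPM in FoEV.

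PDK1 phosphorylates and so inactivates the complex. It was read at 43.8, 50.6, 50.0, 38.1 and 51.3 CPM in Co, at 43.2, 63.9, 66.0, 45.1 and 65.9 CPM in FeEV and at 53.7, 42.6, 53.2, 48.1 and 54.0 CPM in FoEV libraries. The FeEV libraries fell into a high set (replicates 2, 3 and 5), above all other libraries, and a low pair (replicates 1 and 4), inside the Co range. PDK1 had a log2 fold change of 0.28 in FeEV vs. Co (SE 0.13, adjusted p = 1.00), with an unadjusted p below 0.05 in 14 of 25 alternative settings. In FoEV vs. Co it was 0.10 (95% interval -0.17 to 0.38). PDK3, a second kinase of the complex, had means of 28.7 ± 4.81 CPM in Co, 25.4 ± 3.73 CPM in FeEV and 29.7 ± 7.52 CPM in FoEV.

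The balance between isoforms of 1 step was compared as the log2 ratio of their counts in a library, with 0.5 added to each count, for 7 pairs in the 3 comparisons. In 1 of the 21 exact permutation tests the two-sided p was below 0.05, the ratio of LDHB to LDHA in FeEV vs. Co. The log2 ratio was 1.65, 1.54, 1.53, 1.56 and 1.83 in the Co libraries, 1.44, 1.201, 1.23, 1.32 and 1.603 in the FeEV libraries and 0.98, 1.11, 1.65, 1.27 and 1.88 in the FoEV libraries. In FeEV, 4 of the 5 libraries lay below every Co library, and the FoEV libraries spanned both ranges. The mean log2 ratio was 1.36 ± 0.16 in FeEV and 1.62 ± 0.13 in Co (SD), a difference of -0.26 with an exact permutation p of 0.0317. Adjusted over the 21 tests by the Benjamini-Hochberg method it was 0.634, the lowest of the 21, and tests of other ratios had the same adjusted p. The smallest unadjusted p that 5 libraries against 5 allow is 0.00794.

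The ratios of the other pairs did not reach an exact permutation p of 0.05. SLC2A3 to SLC2A1 had mean log2 ratios of 3.30 (Co), 3.19 (FeEV) and 3.30 (FoEV), and HK2 to HK1, in the same order, of 1.25, 1.34 and 1.25. PFKP to PFKL had mean log2 ratios of -3.19, -3.42 and -3.12, and ALDOC to ALDOA of -5.59, -6.12 and -5.56. ENO2 to ENO1, which rested on 0 to 7 counts of ENO2, had mean log2 ratios of -8.52, -8.88 and -8.33, and PDK3 to PDK1 of -0.71, -1.15 and -0.79. These ratios compare treatments, and their level depends on transcript lengths that were not divided out.

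**Figure D5:**
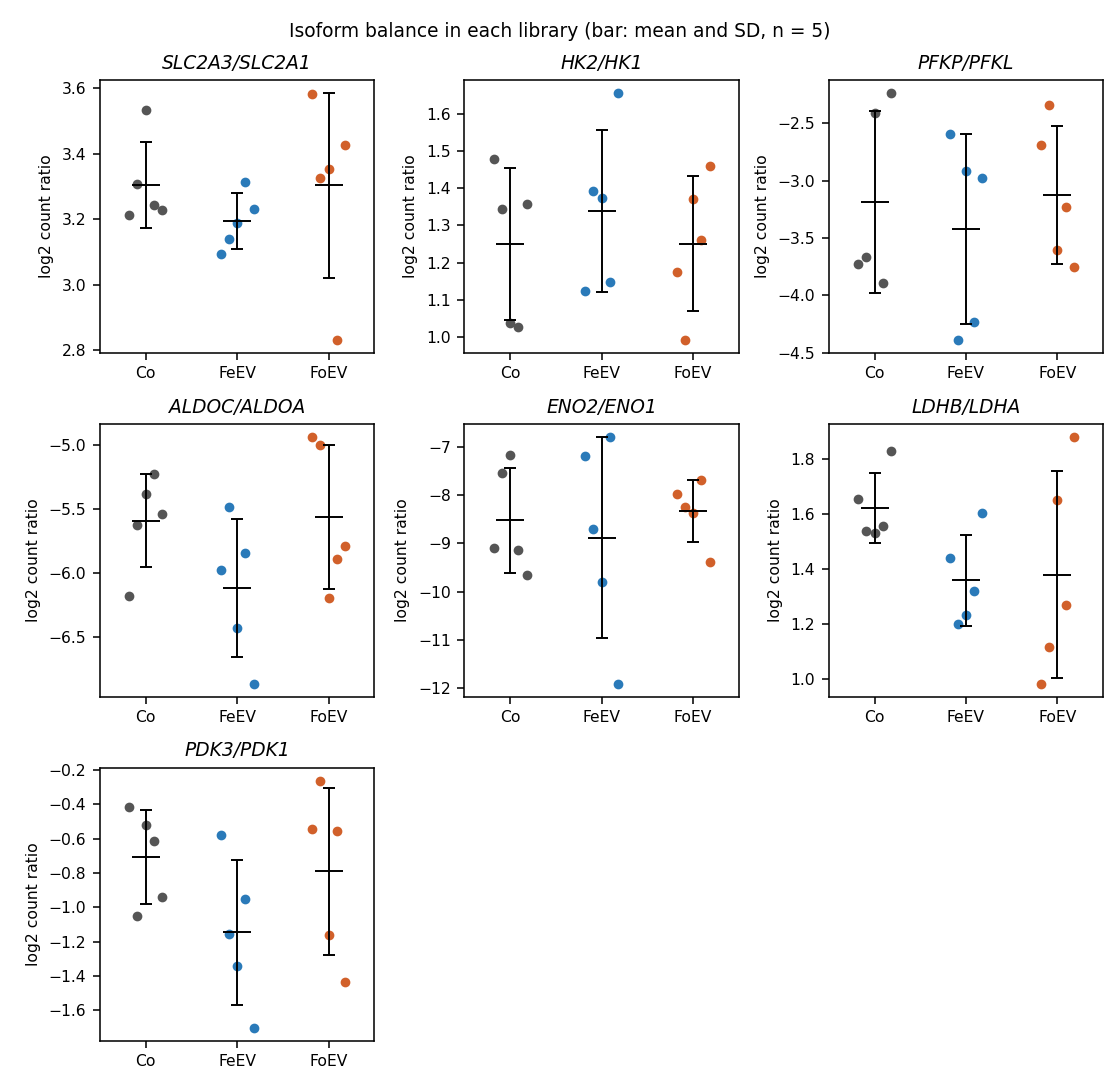
Log2 ratio of the counts of 2 isoforms of the same step in each library (points) of Co, FeEV and FoEV for 7 pairs, with the mean and SD of the 5 libraries as bars. The LDHB to LDHA ratio is lower in 4 of the 5 FeEV libraries than in any Co library, and the vertical scale differs from panel to panel.

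Beyond the 34 genes, 77 further genes of glucose transport, glycolytic isoforms, gluconeogenesis, the pentose phosphate branch, pyruvate and lactate handling, hexose branches and known regulators were listed, of which 49 were in the filtered table. In FoEV vs. Co, 6 of the 49 (12.2%) had a higher and 3 (6.12%) a lower level at an unadjusted p below 0.05, beside 8.18% and 6.88% of all genes, and 0 passed the adjusted p of 0.05 in the quasi-likelihood test, with 3 in the robust likelihood ratio test (2.87% of all genes) and 1 of the 36 that DESeq2 gave an adjusted p (2.4% of all such genes). In FeEV vs. Co it was 1 higher and 1 lower (2.04% each, beside 1.83% and 2.32% of all genes), and in FoEV vs. FeEV 3 higher and 0 lower (6.12% and 0%, beside 4.83% and 3.69%), with 0 past the adjusted p by any of the 3 tests. The log2 fold changes had a median of 0.05 in FoEV vs. Co and of -0.01 in FeEV vs. Co.

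SORD, which oxidises sorbitol to fructose in the polyol pathway, stood at 95.9, 108, 96.1, 93.1 and 101 CPM in Co, at 99.2, 116, 120.1, 117 and 127 CPM in FeEV and at 119, 129.9, 125, 128 and 133 CPM in FoEV libraries. Every FoEV library lay above every Co library. SORD had a log2 fold change of 0.36 in FoEV vs. Co (SE 0.09, adjusted p = 0.0818) and 0.23 in FeEV vs. Co (SE 0.09, adjusted p = 1.00). The adjusted p in FoEV vs. Co was 0.0115 by the robust likelihood ratio test and 0.00844 by DESeq2.

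PFKFB3, the bifunctional enzyme that makes the activator of phosphofructokinase, was read at 44.5, 27.3, 43.2, 46.2 and 51.3 CPM in Co, at 30.4, 16.3, 37.5, 19.6 and 37.7 CPM in FeEV and at 26.6, 24.2, 30.9, 22.4 and 32.2 CPM in FoEV libraries. Co replicate 2 was the low Co library and lay among the oEV values, and the other 4 lay above all 10 oEV libraries. PFKFB3 had a log2 fold change of -0.63 in FoEV vs. Co (SE 0.20, adjusted p = 0.173) and -0.56 in FeEV vs. Co (SE 0.21, adjusted p = 1.00), and the comparisons share the Co libraries. Both unadjusted p-values were below 0.05 in all 25 alternative settings.

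ADPGK, a hexokinase that uses ADP, had means of 27.3 ± 1.10 CPM in Co, 32.3 ± 3.17 CPM in FeEV and 35.3 ± 5.40 CPM in FoEV, and each of its FoEV and FeEV libraries lay above each of its Co libraries. Its log2 fold change in FoEV vs. Co was 0.37 (SE 0.12, adjusted p = 0.178). GALT, of galactose breakdown, had means of 50.9 ± 10.2 CPM in Co, 55.8 ± 3.90 CPM in FeEV and 67.7 ± 10.039 CPM in FoEV and a log2 fold change in FoEV vs. Co of 0.41 (SE 0.13, adjusted p = 0.159). ME2, the mitochondrial malic enzyme that makes pyruvate from malate, had means of 45.4 ± 5.68 CPM in Co, 35.1 ± 8.88 CPM in FeEV and 31.6 ± 8.65 CPM in FoEV and a log2 fold change in FoEV vs. Co of -0.52 (SE 0.18, adjusted p = 0.194). PFKFB3 and ME2 passed the adjusted p of 0.05 in the robust likelihood ratio test, at 0.0251 and 0.0388.

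Pyruvate import and the anchoring of the pyruvate dehydrogenase complex, steps with no gene among the 34, were covered by 3 further genes. MPC1 and MPC2, the mitochondrial pyruvate carrier, had means of 150.0 ± 18.1 CPM in Co, 149 ± 24.1 CPM in FeEV and 159 ± 27.2 CPM in FoEV and of 30.2 ± 2.52 CPM in Co, 33.3 ± 2.40 CPM in FeEV and 34.2 ± 4.47 CPM in FoEV. PDHX, which anchors DLD in the pyruvate dehydrogenase complex, had means of 71.9 ± 5.47 CPM in Co, 69.3 ± 8.86 CPM in FeEV and 64.6 ± 7.40 CPM in FoEV. None of the 3 had an unadjusted p below 0.05.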

How the data were processed

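Deposited read counts per gene were analysed for 15 libraries, 5 per treatment. The deposited counts were raw whole numbers made by the authors from single-end, strand-selected total RNA reads aligned to the ARS-UCD1.2 (bosTau9) assembly with its NCBI annotation. The submitters' processing notes name Trim Galore 0.4.3.1, HISAT2 2.1.0 and featureCounts 1.6.3, whereas the methods of the study name QuasR for the counting, so the counter is uncertain. The authors also deposited a table filtered on low counts, and this was the main input. No source used here says that molecular identifiers were counted, and without them reads amplified from 1 ng of RNA are not independent molecules, so count floors cover counting error only. The labels give 7 days of culture and the study's methods 8, and the labels were followed. Genes were matched to symbols by NCBI identifier, for 10709 of the 10832 filtered genes.

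All 3 comparisons came from 1 fit of the 15 libraries with edgeR 4.0.16 in R 4.3.3 (TMM scaling, quasi-likelihood F test, treatment as the only term), with p-values adjusted by the Benjamini-Hochberg method over all 10832 genes. Adjusted p-values in the text are from this test unless another is named. The fit was tested on simulated counts with 200 changed genes. Isoform ratios were compared with two-sided exact permutation tests over 252 assignments (scipy 1.17.1). Alternatives were DESeq2 size factors, the unfiltered table, the filter of the study's methods, the robust likelihood ratio test, the Wald test of DESeq2 1.42.0, blocks for the replicate number and the library number, only the treatments compared, rRNA genes removed, counts thinned to 2117202 per library, and each library left out in turn. For the further pathway genes and the copies these were added after the data were seen. All 25 settings were counted for every fold change, also the fits that left out a library of the treatment not compared. Such fits reach a comparison only through the shared scaling and dispersion. The settings reuse the same libraries, so a count of settings is not independent support for a difference.

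The 34 genes and the lists of pathway genes and markers were chosen with earlier results of these data known. All 34 were named. Values per library were given for those with an unadjusted p below 0.05 in any comparison and for GAPDH, SLC2A1, SLC2A3, HK2, PFKP, PKM, LDHA, LDHB, TALDO1 and PDK1. Further pathway genes were named at an unadjusted p below 0.01 or when they covered a step with no gene among the 34. A gene that this rule names is not reported here. No 2 libraries of a treatment agreed within sampling noise (chi-square per degree of freedom of 3.74 or more over the 30 pairs). No column was left unused.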

Additional observations from a re-analysis of the deposited data

Results flagged for a closer look

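The highest and the lowest library were checked in each of 96 sets of 5 libraries (32 genes in 3 treatments). In 7 sets 1 library lay apart from the other 4, by a gap of more than 0.71 of the whole range. Each time it was the highest. Chance alone gives about 1 in 20 sets with such a gap at either end, or 4.8 here, and fewer with the gap at the high end. FeEV replicate 5 was the library in 3 of the 7: SLC2A1 stood there at 214 CPM, SLC2A3 at 2012 CPM and SLC16A1 at 602 CPM. Co replicate 5 was the library in another 2, with LDHB at 282 CPM and TALDO1 at 169 CPM. The remaining 2 were SLC2A8 in FeEV replicate 4, at 34.2 CPM, and PFKL in Co replicate 1, at 69.6 CPM.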

How the results depend on the processing

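No gene of the 32 passed the adjusted p of 0.05 in FeEV vs. Co or FoEV vs. FeEV under any of 25 alternatives. In FoEV vs. Co the count was 0 except for 1 gene, TALDO1, without a filter on low counts (1), by the robust likelihood ratio test (1), by DESeq2 (1), with the replicate block (1) and without FoEV replicate 2, so that it ran from 0 to 1 when libraries were left out. Counts over all genes moved more: 1 in FoEV vs. Co by the quasi-likelihood test, 311 by the likelihood ratio test, 144 by DESeq2, 173 without a filter and 58 without FoEV replicate 2. With libraries left out, the count at an unadjusted p below 0.05 ran from 4 to 7 in FoEV vs. Co, from 0 to 3 in FeEV vs. Co and from 3 to 6 in FoEV vs. FeEV, and it was 3 in FoEV vs. FeEV with thinned counts. The share of all genes at that p is not given for these settings, so these counts have no background beside them. The number of isoform ratios with an exact permutation p below 0.05 ran from 0 to 1 in FeEV vs. Co and from 0 to 1 in FoEV vs. FeEV.

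The replicate numbers in the titles are shared by the treatments, and same-numbered libraries deviated together in some pairs only: the correlation over genes was above 0.1 in 1, 3 and 3 of the 5 pairs in FoEV vs. Co, FeEV vs. Co and FoEV vs. FeEV, and its range was -0.291 to 0.441, with all 5 FoEV vs. FeEV pairs at 0.0134 or more. Since not every pair was above 0.1, the numbers were not taken to pair the libraries. A library correlated best with its own number in 1, 2 and 2 of the 5. With the replicate block, all genes gave 57 calls in FoEV vs. Co and TALDO1 had an adjusted p of 0.0433. There 8 of the 32 genes had an unadjusted p below 0.05, and the share of all genes at that p is not given for this setting. In FeEV vs. Co 0 isoform ratios passed with this block, since 5 pairs cannot go below 0.0625. Library numbers in the descriptions, which are not the replicate numbers in every library, gave 3 of 10 pairs above 0.1. With the library number block, all genes gave 12 calls in FoEV vs. Co, and TALDO1 did not pass the adjusted p of 0.05.

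Of 29 single-gene log2 fold changes followed, 20 kept their sign throughout and 9 did not. Over all 32 genes, 15 changed sign in FoEV vs. Co, 16 in FeEV vs. Co and 12 in FoEV vs. FeEV in at least 1 alternative. With libraries left out, those of FoEV vs. Co ran from -0.085 to 0.045 for HK2, -0.14 to 0.31 for PFKP, -0.033 to 0.093 for PKM and -0.017 to 0.14 for LDHA, and those of FeEV vs. Co from -0.029 to 0.090 for SLC2A1, -0.021 to 0.11 for HK2, -0.16 to 0.033 for PKM and -0.017 to 0.069 for LDHA. With the library number block, PKM was at -0.015 and PDK1 at -0.037 in FoEV vs. Co, and LDHA at -0.018 in FeEV vs. Co. The cause was not tested. For the 49 further pathway genes, the count past the adjusted p in FoEV vs. Co was 2 without a filter, 3 by the likelihood ratio test, 1 by DESeq2 and 1 with the replicate block. Their count at an unadjusted p below 0.05 was 15 in FoEV vs. Co, 4 in FeEV vs. Co and 5 in FoEV vs. FeEV without a filter. In FeEV vs. Co it was 4 by the likelihood ratio test, 5 with the library number block and 5 with only the treatments compared, and in FoEV vs. FeEV it was 7 with the replicate block. With libraries left out it ran from 5 to 13, 2 to 5 and 1 to 5 in the 3 comparisons. For these settings too, the share of all genes at an unadjusted p below 0.05 is not given, and the counts have no background beside them. At 0 to 7 counts of ENO2 a library, and 2 or 3 of SLC16A3 a treatment, no difference was detectable.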
